A study of Mus musculus with 4 samples.

Results

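The SOX transcription factors of the neural lineage were followed here in primary neural stem/progenitor cells (NSCs) of +/+ and Chd5-/- mice. The 10 genes were Sox1, Sox2, Sox3, Sox4, Sox6, Sox8, Sox9, Sox10, Sox11 and Sox21, taken by gene name from a table of 18169 rows, and each name had its own row. All 10 had a mean of at least 1 TPM (the share of all transcripts in a sample, corrected for transcript length) and so were among the 12576 rows tested. SOX proteins share a DNA-binding HMG box, bend DNA at short ACAAAG-like sites and usually act with a partner factor. In the brain the SOXB1 genes (Sox1, Sox2 and Sox3) are known for keeping progenitors undifferentiated, Sox21 of SOXB2 for opposing them, and the SOXC genes (Sox4 and Sox11) for turning on neuronal genes. The SOXE genes (Sox8, Sox9 and Sox10) are known for glial specification and myelination, and Sox6 of SOXD for holding back the maturation of oligodendrocyte precursors.

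RNA-seq was available for 4 samples, 2 +/+ (replicates 1 and 2) and 2 Chd5-/- (replicates 1 and 2), of strain C57BL/6. Chd5 encodes a chromatin remodeling protein, and the Chd5-/- cells came from mice that lack it. Each culture was started from the periventricular tissue of 1 newborn pup and was kept in proliferation medium with epidermal growth factor and fibroblast growth factor 2, so that each sample stands for 1 animal and the p-values rest on the spread among these 4 cultures. The growth protocol gives postnatal day 1 for the pups, but the age entries of the labels give days 1 and 2 for +/+ and days 3 and 4 for Chd5-/-, so by those entries age and genotype cannot be told apart.

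Chd5, the targeted gene, was at 0.39 and 0.37 TPM in +/+ and at 0.06 and 0.04 TPM in Chd5-/-, lower in both but under the minimum of 1 TPM for testing. The columns summed to between 1000015 and 1000031 TPM, which keep no read numbers, so the depth behind each value is unknown. Markers of NSCs were measured in every sample (Fabp7 from 1939 to 5892 TPM, Vim from 1068 to 1502 TPM and Nes from 60.9 to 94.7 TPM), while the 7 neuronal markers summed to between 372 and 798 TPM, nearly all of it from Map2, and the microglial markers summed to between 0.32 and 0.75 TPM. Mesenchymal markers summed to 12.2 TPM in Chd5-/- replicate 1 and to at most 0.17 TPM in the other samples. In such bulk RNA, fewer cells of a type and less RNA per cell cannot be told apart.

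Promoter sequences are shown for the 4 members that carry the comparisons below: Sox2 as the most abundant, Sox4 and Sox11 as the SOXC pair with opposite differences, and Sox8 as the member whose Chd5-/- samples lay farthest apart. Each sequence is the 250 bases before the transcript start in RefSeq (GRCm38.p6), printed on the strand of the gene. Capitals mark the SOX core (ACAAAG or ACAATG) and the CCAAT box, each searched on both strands, so that their reverse complements are capitalized too.
Sox2, chr3:34649745-34649994, plus strand: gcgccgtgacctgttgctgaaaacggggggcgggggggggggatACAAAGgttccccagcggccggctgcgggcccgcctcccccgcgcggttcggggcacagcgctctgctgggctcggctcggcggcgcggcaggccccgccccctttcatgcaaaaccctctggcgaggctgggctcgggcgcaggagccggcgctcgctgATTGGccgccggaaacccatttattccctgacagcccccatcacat
Sox4, chr13:28953700-28953949, minus strand: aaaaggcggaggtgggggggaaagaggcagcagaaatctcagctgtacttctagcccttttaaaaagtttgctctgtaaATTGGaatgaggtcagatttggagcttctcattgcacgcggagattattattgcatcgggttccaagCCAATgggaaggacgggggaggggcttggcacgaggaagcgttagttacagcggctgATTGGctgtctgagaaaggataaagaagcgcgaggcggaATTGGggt
Sox11, chr12:27342719-27342968, minus strand: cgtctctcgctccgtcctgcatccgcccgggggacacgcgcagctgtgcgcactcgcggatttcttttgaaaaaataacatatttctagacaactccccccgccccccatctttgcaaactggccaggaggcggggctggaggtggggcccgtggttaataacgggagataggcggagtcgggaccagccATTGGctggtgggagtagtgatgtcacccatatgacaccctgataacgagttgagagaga
Sox8, chr17:25570687-25570936, minus strand: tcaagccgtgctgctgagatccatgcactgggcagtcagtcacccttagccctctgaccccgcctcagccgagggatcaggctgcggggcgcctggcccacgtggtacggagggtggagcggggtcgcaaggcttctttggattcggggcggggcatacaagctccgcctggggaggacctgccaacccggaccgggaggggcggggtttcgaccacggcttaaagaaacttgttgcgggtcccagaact

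The Sox2 window held 1 SOX core, with its first base 206 bases before the start, and 1 CCAAT box. Of 32851 windows of the same length, 25.2% held a SOX core and 33.8% a CCAAT box. Sox4 held 4 CCAAT boxes, a number that 0.840% of windows reached or passed, and no SOX core. Sox11 held 1 CCAAT box, and Sox8 held neither motif. The windows held more CpG than the median of 6, with 27 in Sox2, 18 in Sox8, 17 in Sox11 and 11 in Sox4. Of all windows, 91.4%, 78.3%, 76.5% and 64.4% held fewer than these, in the same order. These letters describe the windows and say nothing about binding, which was not measured.

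Between genotypes, none of the 10 SOX genes passed the threshold of an adjusted p of 0.05 (limma on log2(TPM + 1), Benjamini-Hochberg over all rows tested), which 0.0557% of the rows tested passed. At an unadjusted p under 0.05, 0 members were higher in Chd5-/- (21.9% of all rows) and 1 was lower, Sox11 (2.27% of all rows). Both Chd5-/- samples lay above both +/+ samples in 1 member, Sox4 (46.3% of all rows), and below them in 2, Sox2 and Sox11 (13% of all rows). The other 7 overlapped (40.6% of all rows). The median log2 fold change was 0.05 over the members and 0.34 over all rows tested. The smallest p that an exact permutation test of 2 against 2 samples can give is 0.333, so no single value can be called by such a test.

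The Chd5-/- samples differed from each other in most SOX genes. Replicate 2 was above replicate 1 in 9 of the 10 members (50.1% of all rows), and by at least 1 on the log2 scale in 8 of them (8% of all rows). No member was lower in replicate 2 by that much (8.87% of all rows). The median difference was 1.73 in log2(TPM + 1), beside 0.0021 over all rows. The +/+ samples were at least 1 log2 unit apart in 1 member, Sox10 (4.05% of all rows). The TPM of the 10 members added up to 786 and 751 in +/+, to 418 in Chd5-/- replicate 1 and to 1149 in replicate 2, so that the 2 Chd5-/- cultures lay on either side of both +/+ cultures.

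**Figure D1:**
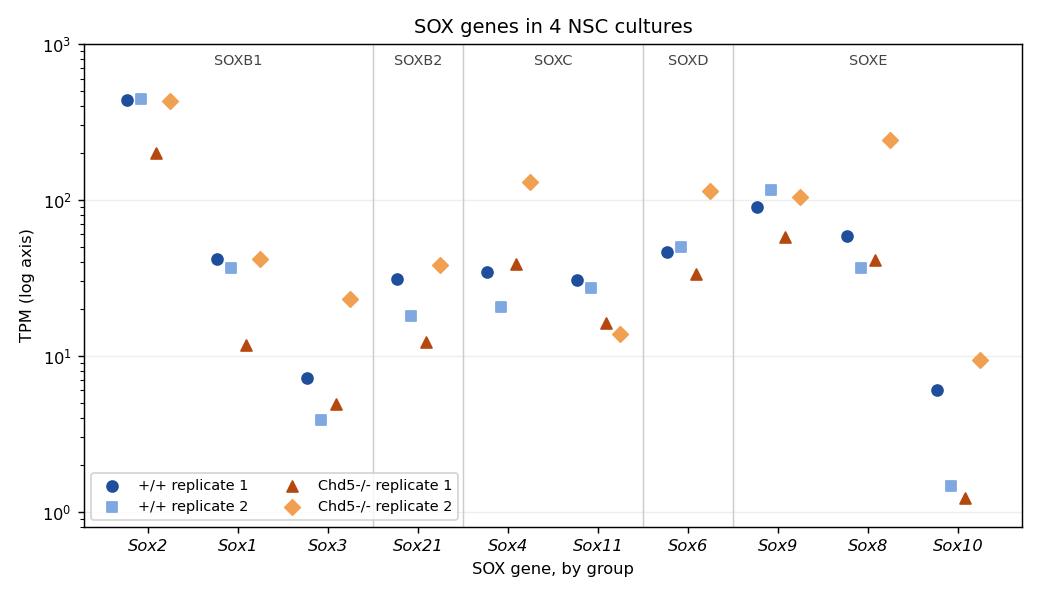
TPM on a log axis of the 10 SOX genes, ordered by SOX group, with 1 point per sample. Chd5-/- replicate 2 is the highest of the 4 samples in 6 members and Chd5-/- replicate 1 the lowest in 6, while both Chd5-/- points of Sox11 lie below both +/+ points.

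Over the 4 samples the mean levels ran in the order Sox2 (378 TPM), Sox8 (94.7 TPM), Sox9 (91.8 TPM), Sox6 (61.1 TPM), Sox4 (56.0 TPM), Sox1 (33.1 TPM), Sox21 (24.9 TPM), Sox11 (22.0 TPM), Sox3 (9.78 TPM) and Sox10 (4.53 TPM). Every pair of neighbours in this order overlapped in its range over the samples. Within each sample Sox2 was nonetheless the highest, and Sox9 was second in both +/+ samples and in Chd5-/- replicate 1. Sox8 was second in Chd5-/- replicate 2.

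Among the SOXB1 genes, Sox2, the factor most closely tied to NSC self-renewal, is an intronless gene at chr3:34650405-34652461 on the plus strand (GRCm38, the build of all gene positions given) and lies inside the noncoding gene Sox2ot on the same strand. Its level was 439 and 442 TPM in +/+, 201 TPM in Chd5-/- replicate 1 and 432 TPM in replicate 2. Both Chd5-/- values were below both +/+ values, replicate 2 by a narrow margin and replicate 1 by a wide one. The log2 fold change was -0.58 (SE 0.40, 95% interval -1.60 to 0.44, limma adjusted p = 0.416). It was -1.13 without Chd5-/- replicate 2 and -0.03 without replicate 1. Each of these fits leaves 1 Chd5-/- sample, whose spread cannot be estimated. Sox2 stood among the top 1.30% to 1.69% of rows in the other 3 samples and in the top 4.09% in Chd5-/- replicate 1. Sox2ot was at 27.5 and 2.12 TPM in +/+ and at 5.78 and 7.45 TPM in Chd5-/-, a spread within +/+ that Sox2 did not show.

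Sox1, which is also an intronless SOXB1 gene (chr8:12395295-12400126, plus strand), was at 42.0 and 36.7 TPM in +/+, 11.8 TPM in Chd5-/- replicate 1 and 41.8 TPM in replicate 2. Chd5-/- replicate 1 was thus the lowest sample and replicate 2 sat between the +/+ samples. The log2 fold change was -0.78 (SE 0.58, limma adjusted p = 0.446), and it was -1.65 without Chd5-/- replicate 2 but 0.086 without replicate 1. Sox3, the X-linked SOXB1 gene (chrX:60891366-60893430, minus strand), was at 7.19 and 3.86 TPM in +/+ and at 4.89 and 23.2 TPM in Chd5-/-. Its highest value was again that of Chd5-/- replicate 2, and the log2 fold change was 0.92 (SE 0.72, limma adjusted p = 0.468).

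Within SOXB1, Sox2 held 89.9% and 91.6% of the summed TPM in +/+ and 92.3% and 86.9% in Chd5-/-. A share within a group is not changed by multiplying all values of a sample by 1 factor, but it can move with corrections made gene by gene. Sox1 held 8.60% and 7.62% in +/+ and 5.43% and 8.40% in Chd5-/-, which overlapped, but 9.46% and 8.79% in +/+ and 5.22% and 6.77% in Chd5-/- without overlap after removal of trends with GC content and transcript length. The share of Sox3 was 1.47% and 0.800% in +/+ and 2.25% and 4.66% in Chd5-/-, above +/+ in both but small in each sample.

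Sox21, the SOXB2 gene measured (chr14:118233232-118237030, minus strand, intronless), was at 31.1 and 18.0 TPM in +/+ and at 12.3 and 38.3 TPM in Chd5-/-. The Chd5-/- samples were the lowest and the highest of the 4, and the log2 fold change was -0.11 (SE 0.58, limma adjusted p = 0.920).

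The fold changes of the SOXC members had opposite signs. Sox11, a driver of neuronal genes in newborn neurons (chr12:27334264-27342574, minus strand, intronless), was at 30.7 and 27.1 TPM in +/+ and at 16.2 and 13.8 TPM in Chd5-/-. It was the 1 member whose Chd5-/- samples were both well below +/+ and close to each other (28.9 ± 2.51 TPM in +/+ and 15.0 ± 1.70 TPM in Chd5-/-, SD, n = 2 each). The log2 fold change was -0.90 (SE 0.24, 95% interval -1.52 to -0.28) with an unadjusted limma p of 0.0130, and the adjusted p of 0.134 did not pass. Leaving out either Chd5-/- sample gave -1.01 and -0.79, and over all 11 alternatives that kept the 4 samples the value lay between -1.30 and -0.76, each at an unadjusted p under 0.05. Without +/+ replicate 1 or 2 the unadjusted limma p was 0.107 and 0.0636, so that this call was lost.

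Sox4 (chr13:28948919-28953713, minus strand, intronless), which acts with Sox11 on neuronal genes and is also expressed in progenitors, was at 34.5 and 20.6 TPM in +/+, 38.9 TPM in Chd5-/- replicate 1 and 130 TPM in replicate 2. Both Chd5-/- values were above both +/+ values, replicate 1 by a small margin and replicate 2 by a wide one. The log2 fold change was 1.38 (SE 0.61, 95% interval -0.17 to 2.94, limma adjusted p = 0.243). It was 2.24 without Chd5-/- replicate 1 and 0.53 without replicate 2. The gap to +/+ closed under each of 4 other scalings of the samples, in which Sox4 overlapped. The noncoding gene Gm26735 overlaps Sox4 on the opposite strand, and whether counting used strand is not given in the sources used here.

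The ratio of Sox4 to Sox11 was 1.13 and 0.759 in +/+ and 2.40 and 9.40 in Chd5-/-. It was higher in both Chd5-/- samples, which were themselves apart. In the summed TPM of SOXC, Sox11 held 44.8% and 55.1% in +/+ and 25.7% and 9.36% in Chd5-/-, and Sox4 held 50.4% and 41.8% in +/+ and 61.7% and 88.0% in Chd5-/-. The remaining SOXC gene, Sox12, was at 3.26 and 1.53 TPM in +/+ and at 7.91 and 3.93 TPM in Chd5-/-, with a log2 fold change of 1.01 (limma adjusted p = 0.251). Unlike Sox4, Sox12 was lower in Chd5-/- replicate 2 than in replicate 1.

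**Figure D2:**
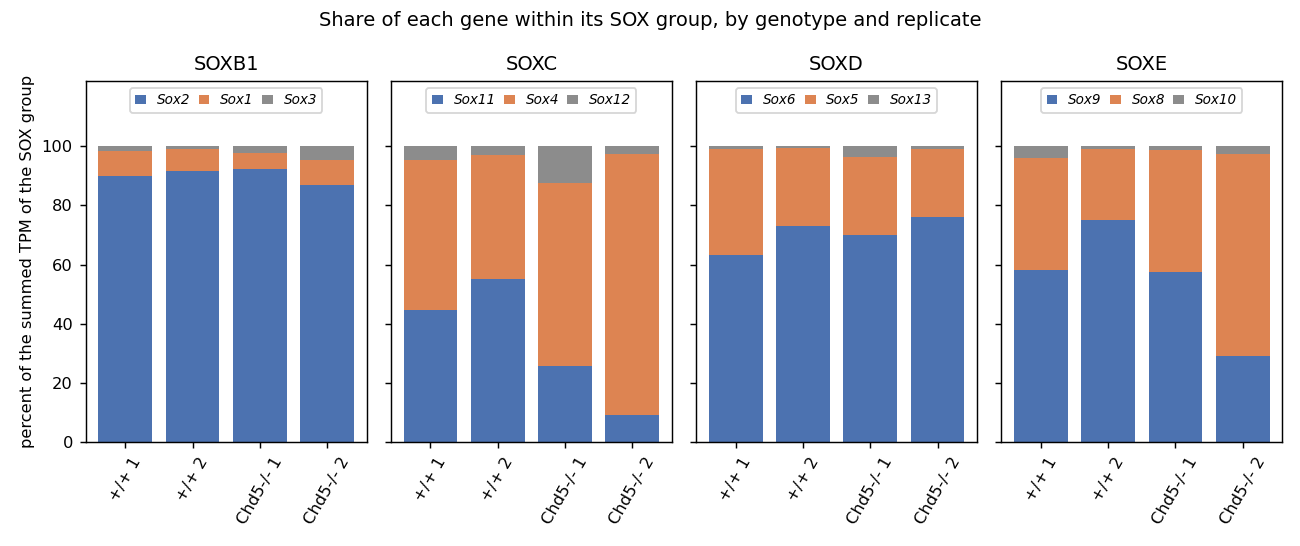
Percent of the summed TPM of each SOX group held by its genes in each sample, for SOXB1, SOXC, SOXD and SOXE. The Sox11 share is lower in both Chd5-/- samples (25.7% and 9.36%) than in +/+ (44.8% and 55.1%), the Sox2 share stays between 86.9% and 92.3%, and Sox8 exceeds Sox9 in Chd5-/- replicate 2 alone.

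Sox6, a SOXD factor without a transactivation domain of its own (chr7:115470872-116038796, minus strand, 16 exons in its longest transcript), was at 46.5 and 49.6 TPM in +/+, 33.5 TPM in Chd5-/- replicate 1 and 115 TPM in replicate 2. The Chd5-/- samples again lay on either side of +/+. The log2 fold change was 0.36 (SE 0.58, limma adjusted p = 0.721), with 1.24 without Chd5-/- replicate 1 and -0.51 without replicate 2. Sox5, its SOXD relative, was likewise lowest in Chd5-/- replicate 1 and highest in replicate 2 (26.4 and 18.0 TPM in +/+, 12.6 and 34.7 TPM in Chd5-/-). Sox6 held 63.2% and 72.9% of the summed SOXD TPM in +/+ and 69.9% and 76.1% in Chd5-/-, which overlapped.

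Among the SOXE genes, Sox9, which precedes gliogenesis and is kept in astrocytes (chr11:112782224-112787760, plus strand, 3 exons), was at 90.6 and 115 TPM in +/+ and at 57.7 and 104 TPM in Chd5-/-. Chd5-/- replicate 1 was the lowest, and the log2 fold change was -0.39 (SE 0.35, limma adjusted p = 0.514). Sox8, a gene of glial precursors (chr17:25565892-25570686, minus strand, 3 exons), was at 58.9 and 36.5 TPM in +/+, 41.2 TPM in Chd5-/- replicate 1 and 242 TPM in replicate 2. Only Chd5-/- replicate 2 stood outside the +/+ range, and the difference of 2.53 log2 units between the Chd5-/- samples was the widest among the members. The log2 fold change of Sox8 was 1.10 (SE 0.83, 95% interval -1.02 to 3.21, limma adjusted p = 0.454), with 2.36 without Chd5-/- replicate 1 and -0.17 without replicate 2. The start of Sox8 overlaps 2810468N07Rik on the opposite strand.

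Sox10, the SOXE factor of oligodendrocytes and neural crest derivatives (chr15:79154908-79165240, minus strand, 5 exons), was at 6.04 and 1.46 TPM in +/+ and at 1.23 and 9.37 TPM in Chd5-/-. Both genotypes held a low and a high sample, and the log2 fold change was 0.21 (SE 0.88, limma adjusted p = 0.901). The ratio of Sox8 to Sox9 was 0.650 and 0.317 in +/+, 0.714 in Chd5-/- replicate 1 and 2.33 in replicate 2. Sox9 thus held the largest SOXE share in 3 samples (58.3%, 75.2% and 57.6%), and Sox8 held 68.1% in Chd5-/- replicate 2.

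**Figure D3:**
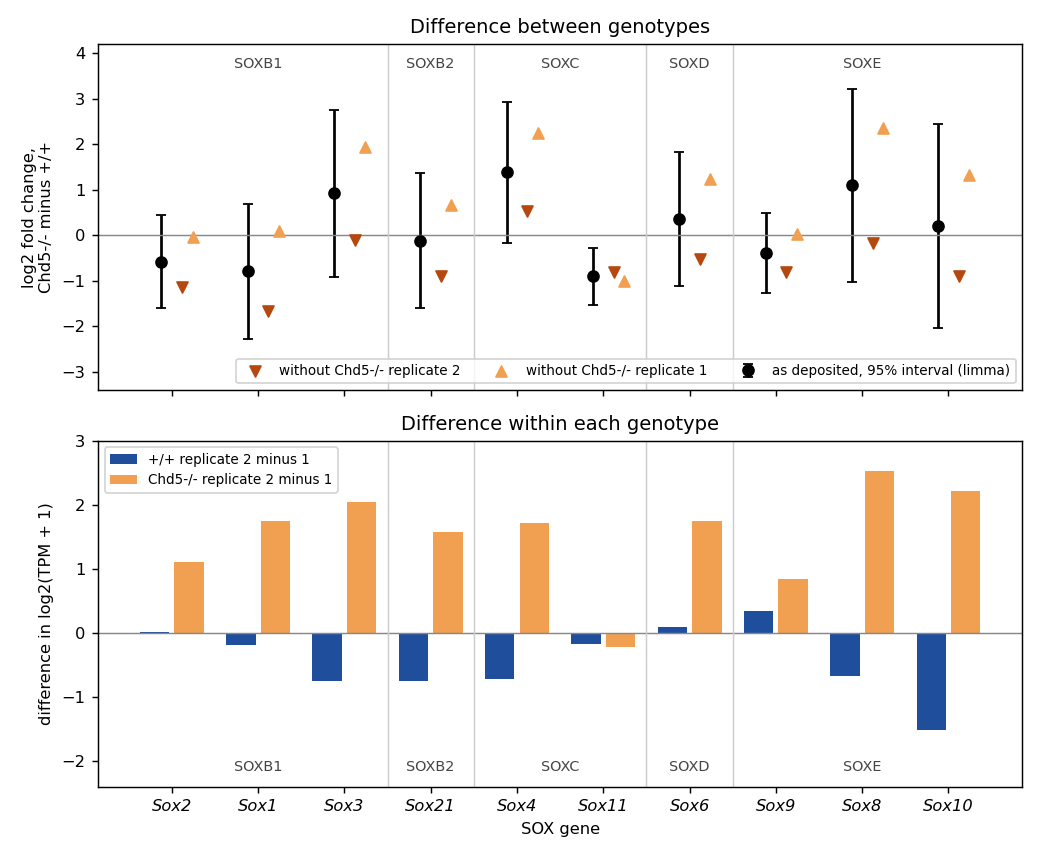
Upper panel, log2 fold change of each SOX gene (Chd5-/- minus +/+) with its 95% limma interval, and the value with either Chd5-/- sample left out. Lower panel, difference in log2(TPM + 1) between replicates 2 and 1 of each genotype. In 7 members the sign of the fold change turns between the 2 left-out values, and 9 members have a Chd5-/- difference above 0 while that of Sox11 is -0.22.

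The direction of each SOX gene was compared under the scalings because the median of all rows moved with them, from 0.34 as deposited to 0.13 when the 20 rows of highest TPM were left out of the total, -0.03 with median-of-ratios scaling, -0.05 with quantile normalization and -0.03 after removal of trends with GC content and transcript length. The median of the members moved from 0.05 to -0.16, -0.30, -0.44 and -0.75 in the same order, and was below that of all rows each time. Sox1, Sox2, Sox9, Sox11 and Sox21 had fold changes below 0 and Sox3, Sox4 and Sox8 above 0 in all 5 cases, whereas Sox6 and Sox10 changed sign. Sox2 and Sox11 lay below +/+ without overlap in all 5. The shares of all rows below without overlap were 23.7% without those 20 rows, 32% with median-of-ratios scaling and 30.1% with quantile normalization. The members below numbered 3, 4 and 3 in the same order. Above without overlap lay 0 members each time, beside 35%, 28.3% and 24.2% of all rows. How many of all rows stayed below in all 5 was not counted. After removal of GC and length trends, 5 members lay below without overlap (25.8% of the rows fitted) and 0 above (21.2%), and Sox1 was at -1.62 with an unadjusted limma p of 0.0368 (adjusted p = 0.431). The difference between the Chd5-/- samples remained in this setting, with replicate 2 higher in 9 of 10 members and a median of 1.61.

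**Figure D4:**
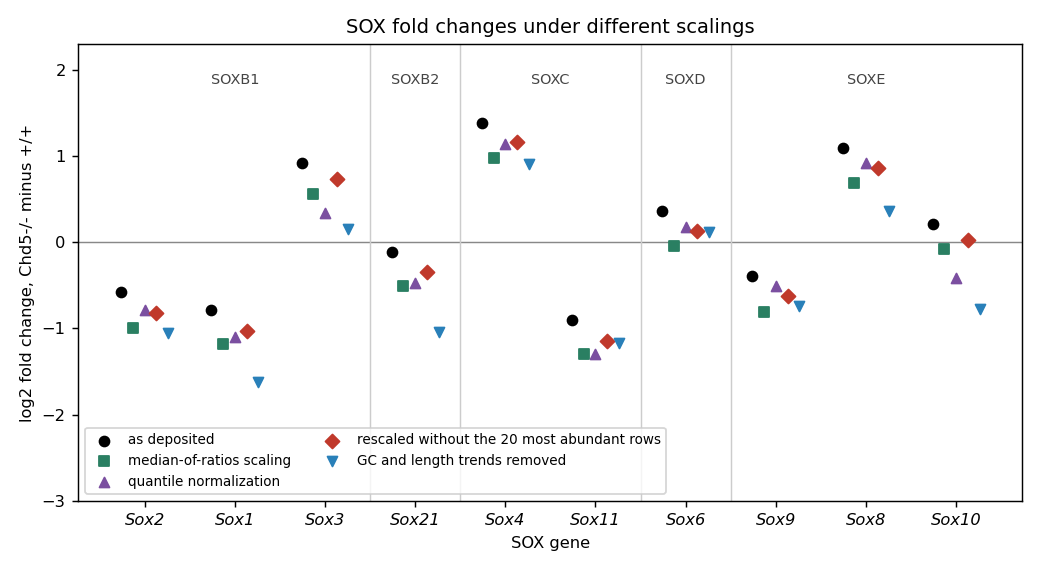
Log2 fold change (Chd5-/- minus +/+) of each SOX gene as deposited and under 4 other scalings, 1 point per setting. Sox11 stays between -1.30 and -0.90, Sox1, Sox2, Sox9 and Sox21 stay below 0, Sox3, Sox4 and Sox8 stay above 0, and Sox6 and Sox10 cross 0.

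Of the SOX genes outside the 10 members, 6 had a row. Sox13 (SOXD) was at 0.70 and 0.45 TPM in +/+ and at 1.83 and 1.29 TPM in Chd5-/- (log2 fold change 0.70, limma adjusted p = 0.304), and its sign turned to -0.28 once GC and length trends were removed. Sox7 (SOXF), a gene of endothelial cells, was at 0.50 and 1.04 TPM in +/+ and at 4.45 and 0.06 TPM in Chd5-/-. Sox18, the other SOXF gene with a row, and the germ cell gene Sox30 were at or under 0.17 TPM in every sample. The 7 cartilage genes that Sox9 drives in chondrocytes, such as Col2a1 and Acan, were at or below 1 TPM in all samples except Col9a1 at 1.02 TPM in Chd5-/- replicate 2.

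Partner factors of SOXB1 (POU and homeodomain proteins) were all measured. Of 8 tested, 1 had an unadjusted limma p under 0.05, Otx2, and it was higher in Chd5-/-, as were 21.9% of all rows. Otx2, a forebrain and midbrain homeobox gene, was at 28.3 and 18.3 TPM in +/+ and at 99.7 and 36.6 TPM in Chd5-/- (log2 fold change 1.37, limma adjusted p = 0.197). Pou3f4 (Brn4) was at 3.94 and 1.06 TPM in +/+ and at 4.84 and 19.8 TPM in Chd5-/- (1.79 on the log2 scale, limma adjusted p = 0.223). Lhx2 had a log2 fold change of -1.84, but its +/+ samples were at 37.4 and 5.60 TPM. Pou3f2 (Brn2), which binds with Sox2 at neural enhancers, was at 36.4 and 35.4 TPM in +/+ and at 15.5 and 32.0 TPM in Chd5-/-, lowest in replicate 1 as Sox2 was. Under the 4 other scalings 0 of the 8 were higher at that p and 0 to 2 were lower. Of all rows fitted, 612 to 1871 were then higher and 701 to 1508 lower, against 2748 and 285 as deposited.

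Of 12 genes listed as SOXB1 targets in NSCs, 0 were higher and 1 was lower at an unadjusted limma p under 0.05, beside 21.9% and 2.27% of all rows, and 4 lay below +/+ without overlap, beside 13% of all rows. Jag1, a Notch ligand, was at 23.3 and 37.1 TPM in +/+ and at 13.5 and 8.88 TPM in Chd5-/- (log2 fold change -1.34, limma adjusted p = 0.131). Ccnd1 had a value of -1.56 with Chd5-/- samples at 723 and 111 TPM. At the other end stood Prom1, at 0.99 and 4.15 TPM in +/+ and 45.3 and 3.20 TPM in Chd5-/-, and Egfr, at 139 and 129 TPM in +/+ and 147 and 324 TPM in Chd5-/- (0.70 on the log2 scale). Between the Chd5-/- samples, 8 of the 12 were higher in replicate 2 (50.1% of all rows) and 4 were lower. A link of these differences to Sox2 was not tested. Under the 4 other scalings 0 of the 12 were higher in Chd5-/- and 1 to 4 lower at that p. Of all rows fitted, 612 to 1871 were then higher and 701 to 1508 lower, against 2748 and 285 as deposited.

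Of 10 genes listed as SOXC targets in neurons, 7 were tested, and 3 were higher (Klf7, Tead2 and Prox1) and 1 lower (Elavl3) in Chd5-/- at an unadjusted limma p under 0.05, beside 21.9% and 2.27% of all rows. Klf7 was at 5.41 and 3.88 TPM in +/+ and at 8.99 and 14.1 TPM in Chd5-/- (log2 fold change 1.14, limma adjusted p = 0.154). Elavl3, an RNA-binding protein of neurons, was at 12.3 and 8.63 TPM in +/+ and at 4.15 and 5.74 TPM in Chd5-/- (-0.94, limma adjusted p = 0.177). Of the 7 tested, 5 had fold changes above 0 and 2 below, and a link to Sox4 or Sox11 was not tested. The largest value was that of Cd24a, at 66.9 and 38.4 TPM in +/+ and 413 and 72.5 TPM in Chd5-/- (1.75), where replicate 1 was the high sample. Under the 4 other scalings the number higher at that p was 0 to 2, while 1 was lower in each. Of all rows fitted, 612 to 1871 were then higher and 701 to 1508 lower, against 2748 and 285 as deposited. Dcx was at 2.37 and 0.28 TPM in +/+ and at 0.48 and 1.12 TPM in Chd5-/-, and Tubb3 was at most 2.77 TPM, whereas Map2, a microtubule protein listed with them, was at 366 to 785 TPM.

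Of the 15 rows tested for SOXE glial targets and partners, 14 were higher in Chd5-/- replicate 2 than in replicate 1 (50.1% of all rows), with a median difference of 1.14 log2 units. Apcdd1 had 2 rows, at 2.61, 0.19, 2.45 and 14.2 TPM and at 0.36, 0.19, 0.89 and 6.64 TPM in +/+ replicates 1 and 2 and Chd5-/- replicates 1 and 2. Mmd2, a target of Sox9 and Nfia, was at 211 and 176 TPM in +/+, 44.9 TPM in Chd5-/- replicate 1 and 494 TPM in replicate 2. Between genotypes, 0 rows were higher and 1 was lower at an unadjusted limma p under 0.05, beside 21.9% and 2.27% of all rows. That gene was Slc1a3, the glial glutamate transporter GLAST, at 1871 and 1620 TPM in +/+ and 442 and 1006 TPM in Chd5-/- (log2 fold change -1.38, limma adjusted p = 0.162).

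Glial markers differed between the Chd5-/- samples in the same direction as the SOX genes. So did the 3 neuronal markers tested, with a median difference of 1.10 log2 units, and 4 of the 6 NSC markers (50.1% of all rows). The remaining NSC markers, Prom1 and Nes, went the other way, with differences of -3.46 and -0.63 log2 units. Stmn2, a neuronal marker below the minimum for testing, did so too, at 2.98 TPM in Chd5-/- replicate 1 and 0.62 TPM in replicate 2. Of the 6 astrocyte markers, 3 were at least 1 log2 unit apart between the +/+ samples (4.05% of all rows). All 6 were higher in Chd5-/- replicate 2 than in replicate 1 (50.1% of all rows), with a median difference of 2.09 log2 units. They summed to 698 and 803 TPM in +/+, to 204 TPM in Chd5-/- replicate 1 and to 996 TPM in replicate 2, and Gfap, the astrocyte intermediate filament, was at 0.71 TPM in replicate 1 and 19.7 TPM in replicate 2 beside 13.9 and 14.3 TPM in +/+. Of 7 oligodendrocyte lineage markers, which share 6 genes with the SOXE targets, 6 were higher in replicate 2 (50.1% of all rows). These 7 markers summed to 505 TPM in replicate 1 and 922 TPM in replicate 2 beside 565 and 630 TPM in +/+. Tfap2a, a neural crest gene, was at 13.9 TPM in Chd5-/- replicate 2 and at most 0.62 TPM elsewhere. Of the 6 NSC markers, 3 had fold changes above 0 and 3 below, and 0 had an unadjusted limma p under 0.05. Without overlap 2 lay below +/+, Fabp7 and Vim (13% of all rows). Under the 4 other scalings 0 of the 6 were higher and 0 to 2 lower at that p. Of all rows fitted, 612 to 1871 were then higher and 701 to 1508 lower. Syt1, a neuronal synaptic gene, was at 0.73 TPM in both +/+ samples and at 2.21 and 7.62 TPM in Chd5-/- (limma adjusted p = 0.173). The endothelial markers (mostly Flt1, limma adjusted p = 0.134) summed to 4.63 and 19.5 TPM in +/+ and 1.61 and 0.75 TPM in Chd5-/-, and the ependymal markers (mostly Foxj1, limma adjusted p = 0.122) to 2.44 and 2.79 TPM in +/+ and 9.02 and 6.06 TPM in Chd5-/-. The part of cell makeup in the SOX values was not tested.

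**Figure D5:**
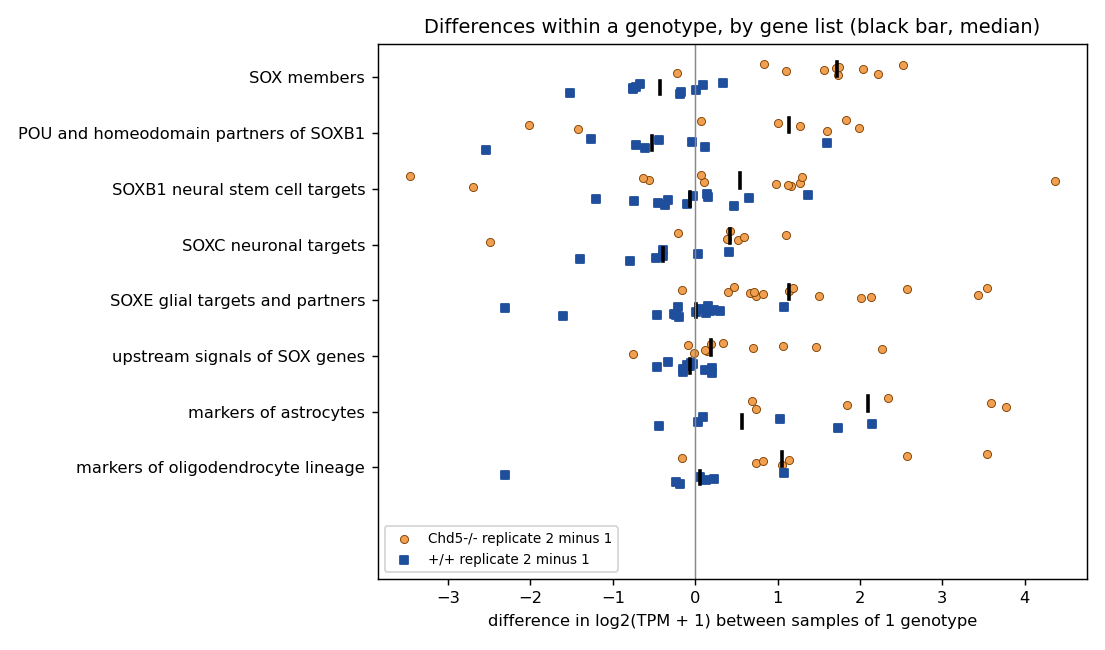
Difference in log2(TPM + 1) between replicates 2 and 1 of each genotype for the 10 SOX genes and 7 related gene lists, 1 point per row tested and a black bar at the median. The Chd5-/- median is 1.73 for the SOX genes, 2.09 for astrocyte markers and 1.14 for SOXE targets, beside 0.19 for upstream signals.

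Signals known to act upstream of SOX genes (FGF, Notch, Hedgehog and BMP components and the repressor Rest) had a median difference of 0.19 log2 units between the Chd5-/- samples. Of 11 tested, 3 were at least 1 log2 unit higher in replicate 2 (8% of all rows), with the largest difference in Fgfr3 (2.27 log2 units). Between genotypes, 1 was higher and 0 were lower at an unadjusted limma p under 0.05, beside 21.9% and 2.27% of all rows. Fgfr1, a receptor for the fibroblast growth factor 2 in the medium, was at 50.1 and 54.4 TPM in +/+ and at 114 and 126 TPM in Chd5-/- (log2 fold change 1.18, limma adjusted p = 0.120), with replicates close together in each genotype. Its log2 fold change was 0.43 after removal of GC and length trends, where 0 of the 11 were higher and 3 lower at that p. Of the 11700 rows fitted there, 612 were higher and 701 lower. Fgfr2 was at 14.7 and 13.2 TPM in +/+ and at 8.32 and 9.16 TPM in Chd5-/- (-0.61, limma adjusted p = 0.225), also without overlap. Notch2 had a log2 fold change of 1.06 with Chd5-/- samples at 4.30 and 13.6 TPM, and Bmp7 had -0.27 with overlap.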

How the data were processed

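The authors deposited 1 table of TPM values for all 4 samples; per the submitters' processing notes, Bowtie2 2.2.3, RSEM 1.2.20 and the mm10 build were named, while the annotation is not given in the sources used here. Columns were assigned to samples by name. Of the gene names, 196 occur in more than 1 row, none of them a member. The values were tested as log2(TPM + 1) with limma 3.58.1 in R 4.3.3 (eBayes with a trend, two-sided, no covariate) over the 12576 rows whose mean level reached 1 TPM, and p-values were Benjamini-Hochberg adjusted over those rows. Fold changes on this scale understate changes of low genes. Gene positions, GC content and transcript length came from GENCODE M21 (GRCm38). Trends with GC and length, known for 93.0% of rows tested, were removed by loess with a span of 0.5. Promoters came from RefSeq and were found for 7 members.

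The members and the gene lists were chosen with earlier results of these data known. Every member and every other SOX gene tested was named, and of each other list the 2 genes with the highest and the 2 with the lowest fold change among those tested, the highest only where above 0 and the lowest only where below 0. Genes named beyond this rule (single cell type markers, Tead2, Prox1, Col2a1, Acan, Col9a1 and low SOX genes) were named after their values were seen. No likeness between patterns was computed, since 4 samples are too few. The results were recomputed with pseudocounts of 0.1 and 5, with the minimum dropped or raised to 10 TPM, with 3 other scalings, after the removal of trends, with a replicate block, without the eBayes trend and with each sample left out. The fit was tested on simulated data drawn with the same spread in both genotypes. In the data the Chd5-/- samples were farther apart (median 0.40 log2 units over all rows tested) than the +/+ samples (0.25). That wider spread was not covered by the simulation. Python 3.11.15 was used with pandas 2.3.3, numpy 2.4.6 and matplotlib 3.10.9.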

Additional observations from a re-analysis of the deposited data

How the results depend on the processing

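The fold changes repeat those of the main fit when the minimum is dropped or raised, with a replicate block or without the eBayes trend. Adding the block after removal of GC and length trends likewise repeats the fold changes of that removal. In these settings only the p-values could move. Of the 148 recomputed member fold changes, with these repeats counted, 129 kept their direction and their side of the threshold. Another 5 passed it, Sox4, Sox6 and Sox8 without Chd5-/- replicate 1 and Sox1 and Sox2 without Chd5-/- replicate 2, in fits that assume the lone remaining sample to vary like the +/+ samples. The sign turned for Sox6 with median-of-ratios scaling (-0.044) and for Sox10 with that scaling (-0.084), with quantile normalization (-0.42) and after removal of GC and length trends (-0.77, also with a replicate block). With each sample left out in turn, the fold changes ranged from -1.65 to 0.086 for Sox1, from -1.13 to -0.03 for Sox2, from -0.10 to 1.94 for Sox3, from 0.53 to 2.24 for Sox4, from -0.51 to 1.24 for Sox6, from -0.17 to 2.36 for Sox8, from -0.81 to 0.026 for Sox9, from -0.90 to 1.32 for Sox10, from -1.01 to -0.79 for Sox11 and from -0.90 to 0.67 for Sox21. The sign turned without Chd5-/- replicate 1 for Sox1 (0.086), Sox9 (0.026) and Sox21 (0.67), without Chd5-/- replicate 2 for Sox3 (-0.10), Sox6 (-0.51), Sox8 (-0.17) and Sox10 (-0.90), without +/+ replicate 1 for Sox21 (0.26) and without +/+ replicate 2 for Sox10 (-0.55). Over all rows, 7 passed an adjusted p of 0.05, against 4 with a pseudocount of 0.1, 0 without a minimum level, 1 with quantile normalization, 3 after removal of GC and length trends, and 0 to 1247 with 1 sample left out, the 0 without either +/+ sample, 1247 without Chd5-/- replicate 1 and 1086 without replicate 2. At an unadjusted limma p under 0.05, 2748 rows were higher and 285 lower, against 1391 and 1508 with median-of-ratios scaling, 1103 and 1024 with quantile normalization, 1871 and 819 after rescaling and 612 and 701 after removal of GC and length trends. The members at that p numbered 1, against 2 after that removal and 4 with a replicate block added to it, where 422 of all rows were higher and 443 lower. The members without overlap numbered 3, against 5 after removal of the trends with or without a replicate block. All 5 lay below +/+, as did 25.8% of the rows fitted, while 21.2% of those rows lay above. With 1 sample left out the members without overlap numbered 4 to 8, but fewer samples are compared there. The share of all rows was not counted for those fits, so these 4 to 8 have no background to be read against. The median fold change of the members, 0.05, became -0.75 after that removal with or without a block and -0.80 to 0.95 with 1 sample left out. The share of Sox1 in SOXB1 moved from -1.20 to -3.13 percentage points (Chd5-/- minus +/+) and that of Sox13 in SOXD from 1.53 to -0.17 after removal of the trends. The cause of these shifts was not tested. The replicate numbers mark separate mice. The differences between replicates 1 and 2 correlated at -0.15 across rows between the genotypes. With 1 such difference per genotype, this value cannot tell whether samples of the same number share a batch. A replicate block left 0 rows called, also with the trends removed. With the numbers crossed, a choice made after seeing the data, 5 were called. The depth of the samples, unknown from TPM, limits what can be said of members near 1 TPM.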
